A study of Mus musculus with 3 samples.

Results

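Droplets dominated by skeletal muscle fibre RNA were picked from 3 single-cell libraries of injured mouse quadriceps and the scar around an implant. A barcode was taken when it held at least 500 UMIs (unique molecular identifiers, 1 per captured molecule), under 20% of UMIs from mt- genes, no UMI of Ptprc (the leukocyte antigen CD45), and at least 2% of its UMIs from 6 gate genes: Acta1, Ckm, Mb, Tnnt3, Tnnc2 and Mylpf. This rule took 237 of 19707 barcodes, or 1.20%. The libraries came from C57BL/6 wildtype mice whose hindlimb muscle had been partly removed (volumetric muscle loss, VML) and packed with PCL particulate, a polymer. All 3 libraries, called replicates 1, 2 and 3 here, carry the same genotype, injury, implant and time of 6 weeks, with no untreated group, so comparisons were made between kinds of barcode within libraries. Dead cells were removed by magnetic sorting, CD45+ and CD45- fractions were separated and remixed 1:1, and 10x Genomics 3′ libraries were made, per the labels. These steps can set the share of any kind of droplet. Nothing in the labels ties the libraries to separate animals, so p-values cover the spread between 3 libraries, which may be technical. The test pools that spread over genes, so a p-value does not measure the spread of a single gene.

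A skeletal muscle fibre is a long, multinucleated cell packed with sarcomeres, in which myosin thick filaments pull on actin thin filaments when calcium binds the troponin complex. Fibres are typed by their myosin heavy chain: Myh4 marks fast glycolytic type IIB fibres, Myh1 marks IIX, Myh2 marks the fast oxidative IIA and Myh7 marks slow type I. Intact adult fibres are much longer than a droplet is wide. Satellite cells, the muscle stem cells, lie on the fibre surface and are separate cells.

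The gate genes were high by choice, and their levels are given as a description. Acta1, skeletal α-actin, was at 35316, 29754 and 43862 CPM (UMIs scaled to a common total) of the summed UMIs of the fibre droplets in replicates 1, 2 and 3, against 13.2, 5.69 and 8.36 CPM in the other Ptprc-zero barcodes. Mylpf, the fast regulatory light chain, was at 24382, 27587 and 34814 CPM, and Tnnc2, fast troponin C, at 20152, 19624 and 25748 CPM in the fibre droplets. Tnnt3, fast troponin T, reached 18399, 19691 and 23450 CPM and Ckm, the muscle creatine kinase, 15934, 17375 and 17174 CPM. Each droplet held at least 1 UMI of Acta1, Ckm, Tnnt3 and Tnnc2, and 235 of 237 held Mylpf. Mb, the oxygen store myoglobin, stood apart from the other gate genes: it was at 1023, 803 and 1349 CPM and was seen in 91 of the 237 droplets. A 3′ UMI counts a molecule once whatever its length, so these levels were not divided by transcript length.

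The label of the droplets was checked against markers, of which Acta1, Ckm, Tnnt3 and Mylpf are part of the rule and support nothing. Fibre genes outside the rule were present in nearly every droplet: Tpm1 in 237, Aldoa in 237, Myl1 in 236, Pvalb in 236, Tnni2 in 235 and Atp2a1 in 234 of 237. Levels of these genes and of markers of other cell types are given below.

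The start-site regions of 4 of the most abundant fibre genes are shown because these genes carry much of the RNA that sets the droplets apart. MyoD-family factors bind the palindromic E-box CAGCTG, which reads the same on both strands. The windows are the 250 bases upstream of the RefSeq start in GRCm38.p6, each written 5′ to 3′ on the strand of its gene, with CAGCTG in capitals. The windows lie at chr8:123894776-123895025 on the minus strand for Acta1, chr7:19410844-19411093 on the plus strand for Ckm, chr7:127211358-127211607 on the plus strand for Mylpf and chr11:67237562-67237811 on the plus strand for Myh4.
Acta1: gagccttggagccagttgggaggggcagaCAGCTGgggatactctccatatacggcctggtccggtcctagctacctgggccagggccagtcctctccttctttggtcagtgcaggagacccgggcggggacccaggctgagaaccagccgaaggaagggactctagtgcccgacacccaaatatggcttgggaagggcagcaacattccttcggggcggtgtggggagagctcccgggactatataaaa
Ckm: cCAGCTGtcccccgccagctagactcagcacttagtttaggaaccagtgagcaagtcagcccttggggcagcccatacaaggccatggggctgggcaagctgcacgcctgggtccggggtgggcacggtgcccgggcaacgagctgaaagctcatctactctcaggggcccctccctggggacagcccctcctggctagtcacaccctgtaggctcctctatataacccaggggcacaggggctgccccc
Mylpf: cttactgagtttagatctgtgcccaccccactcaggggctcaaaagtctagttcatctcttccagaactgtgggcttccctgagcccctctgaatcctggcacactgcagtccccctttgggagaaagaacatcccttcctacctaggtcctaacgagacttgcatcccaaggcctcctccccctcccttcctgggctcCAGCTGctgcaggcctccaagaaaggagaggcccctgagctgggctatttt
Myh4: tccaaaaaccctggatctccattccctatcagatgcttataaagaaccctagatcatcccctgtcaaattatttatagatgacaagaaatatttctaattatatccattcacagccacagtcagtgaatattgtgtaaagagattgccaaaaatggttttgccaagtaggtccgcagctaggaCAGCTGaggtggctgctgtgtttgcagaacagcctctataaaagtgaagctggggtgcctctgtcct
Each of these 4 windows held CAGCTG once, as did the windows of Myl1 and Atp2a1, while the Tnnc2 window had none of these letters. Of 3 Mb windows, 2 held it. Tnnt3 was not matched in the RefSeq table. The motif was in 4271 of all 32851 windows of that length, or 13%. Counted per gene, 39 of the 111 fibre-list genes with a window held it (35.1%), against 14.7% of 27025 genes. The CArG box, a serum response factor motif, was found once each in the Acta1 and Myh4 windows and in 1.47% of all windows. These matches describe letters in a window and were not tested as binding sites.

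The droplets were shallow. The median was 1440, 2096 and 1479 UMIs per fibre droplet in replicates 1, 2 and 3, against 24478, 23336.5 and 23025 UMIs in the other Ptprc-zero barcodes. Of the 237 fibre droplets, 73 held under 1000 UMIs and 138 under 2000, while 57 held 5000 or more (29, 14 and 14 by library). The range ran to 49956, 47301 and 44018 UMIs in the 3 libraries. Fibre droplets held a median of 621, 782 and 611 genes. In total, the fibre droplets gave 481053, 255193 and 323289 UMIs, and the single largest droplet held 10.4%, 18.5% and 13.6% of them.

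The share of barcodes taken differed between libraries. Replicate 1 had 117 of 6068 barcodes (1.93%, exact binomial 95% interval 1.60% to 2.31%), replicate 2 had 53 of 8643 (0.613%, 0.460% to 0.801%) and replicate 3 had 67 of 4996 (1.34%, 1.04% to 1.70%). The mean share was 1.29% ± 0.659 (SD, n = 3), and the intervals cover counting error only. Replicate 2 lay below the other libraries, and the intervals of replicates 1 and 3 overlapped. A further 20 barcodes passed 2% of gate genes but had 20% or more mt- UMIs (8, 0 and 12 by library), and 14 more had a Ptprc UMI (8, 2 and 4). No fibre droplet's barcode sequence occurred in another library.

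**Figure D1:**
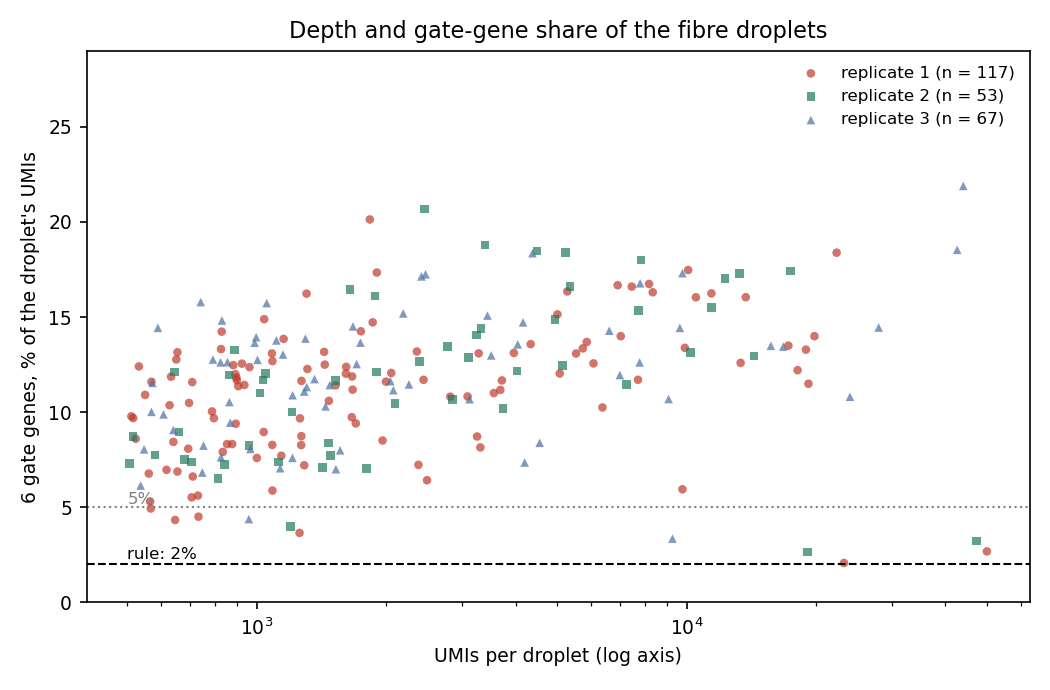
Each point is 1 fibre droplet: the x axis gives its UMIs on a log scale and the y axis the percentage of those UMIs from the 6 gate genes, with 1 marker per library. The dashed line is the rule's 2% and the dotted line 5%; most points sit between 5% and 20%, and 5 deep droplets lie below 5% at the right.

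The gate share was a median of 11.7% of a droplet's UMIs, with a range of 2.07% to 21.9%. It was 5% or more in 226 droplets and 10% or more in 163. Just inside the rule lay droplets at 2.07% and 2.68% in replicate 1, 2.66% and 3.22% in replicate 2 and 3.35% in replicate 3. Just outside it, the highest Ptprc-zero barcodes that were not taken had 1.82%, 1.86% and 1.18%, and only 9, 3 and 3 barcodes lay between 0.5% and 2%. The 99th percentile of barcodes that were not taken was 0.196%, 0.0353% and 0.155%, so the rule fell in a sparse part of the range in each library.

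At the low end, 6, 3 and 2 droplets had a gate share under 5%, and several of them were deep and rich in RNA of another cell type. Others were shallow, of 567 to 1258 UMIs, with at most 0.353% of UMIs from fibroblast markers. In replicate 1, droplets of 49956 and 23239 UMIs held 58.9% and 35.6% of all fibroblast-marker UMIs found in its fibre droplets. In replicate 2, droplets of 47301 and 19094 UMIs held 85.7% and 10.0%. In replicate 3, the droplets under 5% held 3.13% of those UMIs, but 1 of them, with 9273 UMIs, held 74.4% of the Malat1 UMIs. Scrublet, a doublet caller, placed 2, 2 and 0 fibre droplets among its top scores, and the origin of these droplets was not tested further. Several values are therefore given both for all fibre droplets and for those of 5% or more.

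The fibre programme beyond the gate filled much of the RNA. Gate genes and 12 lists of fibre genes, 143 genes together, made up 27.9%, 27.7% and 31.8% of the fibre droplets' UMIs, against 0.824%, 0.862% and 0.766% in the other Ptprc-zero barcodes. Since fibre RNA was selected, these lists are described by levels with no test. Across 9431 genes with more than 3 UMIs in the fibre droplets, 22.5% were higher in every library of fibre droplets than in any library of the others, and 50.7% were lower in every library. Against that, 8 of 9 fast contractile genes, 17 of 18 sarcomere and Z-disc genes, 17 of 18 excitation and calcium genes, all 5 phosphagen and purine genes, all 16 glycolysis and glycogen genes and all 12 muscle oxidative genes were higher without overlap. Over all 15820 genes fitted, the median log2 difference was −1.02, and the list medians were 12.13 for fast contractile, 10.43 for sarcomere and Z-disc, 8.12 for excitation and calcium, 4.69 for glycolysis and 4.04 for oxidative genes.

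Among thin- and thick-filament genes, Tpm1, a tropomyosin, averaged 18524 ± 2980 CPM in fibre droplets and 223.8 ± 10.5 CPM in the other barcodes (SD, n = 3 each). Myl1, the fast essential light chain, averaged 16704 ± 2605 CPM against 4.01 ± 1.40 CPM, and Tnni2, fast troponin I, 16456 ± 1580 CPM against 5.09 ± 1.63 CPM. Tpm1 is thus the gene of these 3 with a clear level in the other barcodes. Actn3, the α-actinin of fast fibres, averaged 3903 ± 479 CPM against 1.96 ± 0.777 CPM. The giant scaffold titin (Ttn) averaged 4154 ± 550 CPM against 2.61 ± 1.95 CPM, and nebulin (Neb) 1624 ± 297 CPM against 1.60 ± 0.561 CPM. Flnc, a filamin of the Z-disc, was the exception of its list, at 38.6 ± 5.05 CPM in fibre droplets and 58.6 ± 5.08 CPM in the others.

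Calcium handling was led by Pvalb, the cytosolic calcium buffer of fast fibres, at 11005 ± 2022 CPM in fibre droplets against 4.06 ± 1.16 CPM in the others (SD, n = 3 each). Atp2a1, the fast calcium pump of the sarcoplasmic reticulum, averaged 6456 ± 733 CPM against 2.24 ± 1.04 CPM. Ryr1, the calcium release channel, averaged 687 ± 11.3 CPM against 0.643 ± 0.101 CPM, and Trdn, its partner triadin, 1109 ± 38.5 CPM against 0.411 ± 0.205 CPM. Casq1, the calsequestrin of fast fibres, averaged 218 ± 74.3 CPM against 0.346 ± 0.0860 CPM. Casq2, the cardiac and slow form, had no UMI in 1059535 UMIs of fibre droplets, which allows up to 2.83 CPM (3 counts over all 3 libraries). It averaged 2.45 ± 1.07 CPM in the other barcodes.

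Energy genes were led by glycolysis. Aldoa, the muscle aldolase, averaged 13432 ± 409 CPM in fibre droplets against 202.6 ± 3.87 CPM in the others (SD, n = 3 each). Muscle-restricted enzymes were further apart, with Pgam2 at 2795 ± 252 CPM against 1.04 ± 0.402 CPM and Eno3 at 3691 ± 162 CPM against 3.24 ± 0.747 CPM. Pygm, the glycogen phosphorylase of muscle, averaged 1430 ± 243 CPM against 4.61 ± 0.495 CPM. Muscle forms of cytochrome oxidase subunits were present too: Cox6a2 averaged 1363 ± 31.4 CPM against 0.455 ± 0.258 CPM, and Cox8b 1603 ± 222 CPM against 1.30 ± 0.283 CPM. Slc25a4, the mitochondrial ATP/ADP carrier, averaged 3864 ± 228 CPM against 238.9 ± 4.86 CPM.

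**Figure D2:**
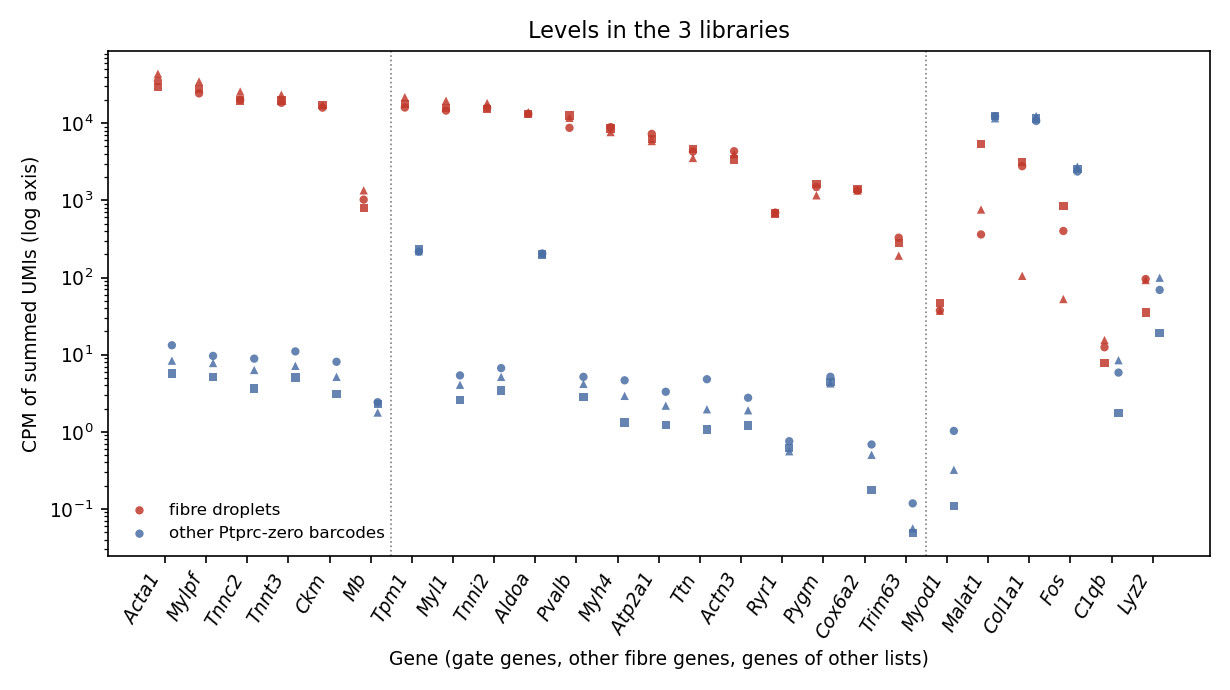
The y axis gives CPM of summed UMIs on a log scale for each gene, with fibre droplets at the left of each pair and other Ptprc-zero barcodes at the right, and circles, squares and triangles for replicates 1, 2 and 3. Dotted lines separate the 6 gate genes, other fibre genes and genes of other lists. Acta1 lies at 29754 to 43862 CPM in fibre droplets, and Malat1 and Col1a1 lie lower there than in the other barcodes.

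Not every fibre list was high. In the membrane and dystrophin complex list, 3 of 10 genes were higher and 4 lower without overlap, beside backgrounds of 22.5% and 50.7%. Cav3, the caveolin of muscle, averaged 72.4 ± 7.15 CPM in fibre droplets against 0.793 ± 0.133 CPM in the others, while Utrn (utrophin) averaged 48.7 ± 52.9 CPM against 290.2 ± 14.1 CPM. Dmd, dystrophin, averaged 95.3 ± 100.7 CPM against 57.7 ± 8.17 CPM, a difference within the spread between libraries. At a gate share of 5% or more the order turned, with Dmd at 25.7 ± 9.35 CPM in fibre droplets, and Utrn was at 11.2 ± 5.41 CPM (SD, n = 3). The neuromuscular junction list was close to empty: its 10 genes summed to 15, 10 and 26 UMIs, and Rapsn, which clusters acetylcholine receptors, gave 27 of them in 19 droplets. At the myotendinous junction, Col22a1 had no UMI, and Ankrd1, a stretch-responsive ankyrin repeat gene, averaged 46.0 ± 20.7 CPM against 1.05 ± 0.203 CPM.

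Of 9 genes of immature fibres, 5 had no UMI in the fibre droplets and 4 were detected. The list made up 0.0378%, 0.0482% and 0.0640% of fibre droplet UMIs, against 0.00730%, 0.00763% and 0.00801% in the others. Without overlap, 2 of the 9 were higher and 3 lower, beside 22.5% and 50.7% of all genes. Myl4, a myosin light chain, had a log2 difference of 4.76 ± 0.454 (SE). Embryonic Myh3 and neonatal Myh8, the fusion genes Mymk and Mymx, and the fetal acetylcholine receptor subunit Chrng had no UMI in the fibre droplets, which allows up to 2.83 CPM, and up to 1.27% of droplets with a UMI. These genes were also at 0.0976, 0.00203, 0.0999, 0.0359 and 0.00669 CPM on average in the other barcodes. Actc1, cardiac α-actin, which developing fibres also make, was present at 262, 415 and 353 CPM in 92 of 237 droplets, against 0.550 ± 0.712 CPM (SD, n = 3) in the others. Actc1 and Acta1 are near-identical in coding sequence, as are the fast myosins, so the way reads were shared between them may move such values.

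Of 15 genes of atrophy and denervation, 4 were higher and 9 lower without overlap, shares near the 22.5% and 50.7% of all genes. Trim63, a muscle ubiquitin ligase also called MuRF1, was at 328, 282 and 192 CPM in fibre droplets, against 0.118, 0.0486 and 0.0559 CPM in the others. Fbxo32, the ubiquitin ligase atrogin-1, was at 254, 141 and 77.3 CPM against 13.9, 20.4 and 18.9 CPM. Both ligases were highest in replicate 1 and lowest in replicate 3, and no group of fibres from uninjured muscle was available. Runx1, which denervated muscle is known to raise, was at 62.4, 58.8 and 40.2 CPM in fibre droplets against 513.9, 514.8 and 377.9 CPM in the others. Metallothionein Mt1 was at 380, 384 and 68.1 CPM against 1526, 1942 and 1422 CPM. At a gate share of 5% or more, Runx1 was at 7.41, 21.3 and 31.9 CPM and Mt1 at 74.1, 79.96 and 70.3 CPM in fibre droplets.

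Nearly every droplet could be placed by its myosin heavy chain UMIs, in some from 1 UMI. Myh4 had 4286, 2175 and 2483 UMIs in 108 of 117, 50 of 53 and 63 of 67 droplets. Myh1 had 646, 110 and 143 UMIs in 19, 9 and 9 droplets, Myh2 had 11, 6 and 0 UMIs, and Myh7 had 1, 0 and 0. Myh4 therefore made up 86.7%, 94.9% and 94.6% of the UMIs of these 4 myosins. By the more abundant myosin, 210 droplets were Myh4-led, 22 were Myh1- or Myh2-led, and 5 were led by neither. With at least 3 UMIs of these myosins required, 190 were Myh4-led and 21 Myh1- or Myh2-led. Both Myh4 and Myh1 were seen in 13, 6 and 7 droplets. Several slow partners were at or near 0: Myl3 and Tnnt1 had no UMI, and Myl2, Tnnc1 and Myh7 had 1 each. Mybpc1, myosin-binding protein C of the slow type, was the most abundant of that list, at 277 ± 70.7 CPM (SD, n = 3) in 90 droplets. Of the 10 slow contractile genes, 2 were higher and 3 lower without overlap, beside 22.5% and 50.7% of all genes. In replicate 1, the Myh1- or Myh2-led droplets held 40 UMIs of Csrp3 and 30 of Myoz2, also of that list. Those of replicates 2 and 3 held 0 of either.

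**Figure D3:**
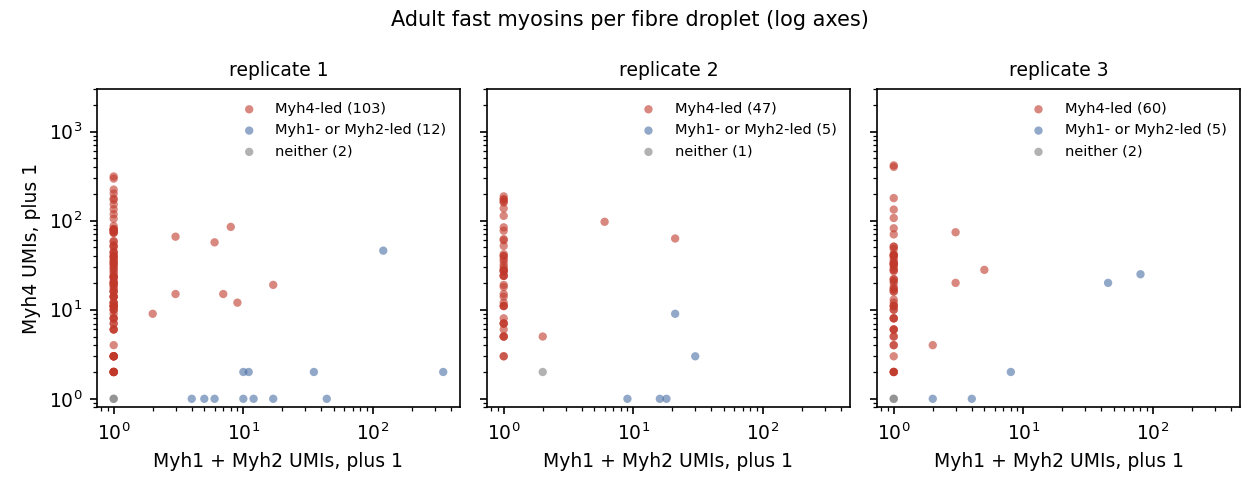
Each point is 1 fibre droplet, with Myh1 plus Myh2 UMIs on the x axis and Myh4 UMIs on the y axis, both plus 1 on log axes, 1 panel per library. Myh4-led droplets (103, 47 and 60) stand mostly on the left edge with no Myh1 or Myh2 UMI, and Myh1- or Myh2-led droplets (12, 5 and 5) lie along the bottom and right.

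The Myh1- or Myh2-led droplets, fewer than 10 in replicates 2 and 3, allowed no test, and their difference from Myh4-led droplets is given as values. Values are for gate shares of 5% or more (97, 45 and 59 Myh4-led droplets, and 12, 4 and 4 Myh1- or Myh2-led ones). This leaves out the droplets under 5% described above, of which some were mixed and others shallow. Pvalb was at 11236, 17662 and 12470 CPM in Myh4-led droplets, against 4098, 5272 and 4073 CPM in Myh1- or Myh2-led droplets. Actn3 was at 5711, 4749 and 4222 CPM in Myh4-led droplets, against 1583, 1582 and 2169 CPM in Myh1- or Myh2-led droplets. Mylpf was at 30123, 37032 and 36573 CPM, against 15135, 16540 and 23645 CPM in Myh1- or Myh2-led droplets. In each of the 3 libraries, Pvalb, Actn3 and Mylpf were higher on the Myh4-led side, with no overlap between sides. Other fast-fibre genes did not all do so. Atp2a1 was at 8090, 7150 and 6011 CPM in Myh4-led droplets, against 9422, 13773 and 4337 CPM in Myh1- or Myh2-led droplets. Tnni2 overlapped, at 18515, 20110 and 18710 CPM against 14980, 11730 and 18831 CPM.

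Myoglobin and several nuclear-encoded oxidative genes were lower on the Myh4-led side. Mb was at 433, 641 and 1001 CPM in Myh4-led droplets, against 4626, 3558 and 6718 CPM in Myh1- or Myh2-led droplets. Fabp3, a fatty acid carrier, was at 327, 338 and 321 CPM in Myh4-led droplets, against 1614, 1450 and 1005 CPM in the others. Cytochrome c (Cycs) was at 581, 495 and 591 CPM against 1211, 1318 and 1746 CPM, and Atp5a1, a subunit of ATP synthase, at 699, 892 and 499 CPM against 1428, 1582 and 1587 CPM. For all 4 genes, every library of the Myh1- or Myh2-led side lay above every library of the Myh4-led side. Of 12 muscle oxidative genes, 8 were lower on the Myh4-led side in 3 of 3 libraries and 1 was higher, beside 18.2% lower and 19.6% higher among 1695 genes with at least 50 UMIs. With the droplets under 5% included, 6 of the 12 were lower and 1 higher, beside 11.1% and 18.0% among 2183 genes. Genes of the mitochondrial genome did not follow them: of 13, 6 were higher on the Myh4-led side in 3 of 3 libraries at 5% or more and 0 lower, and their summed share was 2.33%, 0.213% and 2.73% of UMIs in Myh4-led droplets against 1.44%, 0.224% and 1.71% in Myh1- or Myh2-led ones. With the droplets under 5% included, 1 of the 13 was higher and 0 lower. Of the 6 fast contractile genes left when the myosins are set aside, 5 were higher on the Myh4-led side at 5% or more, and 6 with the droplets under 5%. Glycolysis genes kept no direction: 1 of 16 was higher and 6 lower on the Myh4-led side without the droplets under 5%, and 6 higher and 1 lower with them.

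The sides rest on 339179, 171610 and 292781 UMIs for Myh4-led droplets, against 64421, 15175 and 18905 UMIs for Myh1- or Myh2-led droplets. The largest droplet held 6.59%, 10.2% and 15.0% of the Myh4-led UMIs, against 29.8%, 67.4% and 88.8% of the Myh1- or Myh2-led UMIs, so in replicates 2 and 3 the second side is mostly 1 droplet. Without the largest Myh1- or Myh2-led droplet of each library, a choice made after seeing the data, Mb was at 5197, 5855 and 5674 CPM in the remaining droplets of that side, from 235, 29 and 12 UMIs. Pvalb, Actn3 and Mylpf stayed higher and Mb, Fabp3, Cycs and Atp5a1 lower on the Myh4-led side with no overlap, although Fabp3, Actn3, Cycs and Atp5a1 then rested on 3 to 5 UMIs in replicate 3. Of the 12 oxidative genes, 5 were lower and 1 higher without those droplets, beside 8.88% and 24.6% of 1621 genes, and 0 of the 13 mitochondrial genome genes were higher or lower. Of the 16 glycolysis genes, 6 were then higher and 1 lower on the Myh4-led side, so their direction turned here too.

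Nuclear RNA was scarce in the deep fibre droplets. Malat1 is a long noncoding RNA kept in the nucleus and abundant in nearly all cells. In fibre droplets of at least 5000 UMIs, the median was 0.951, 0.786 and 0.991 Malat1 UMIs per 10000, against 104, 101 and 90.8 per 10000 in other Ptprc-zero barcodes of that depth. Only 3 of 29, 2 of 14 and 1 of 14 such fibre droplets reached the 5th percentile of the others. No Malat1 UMI was seen in 21 of the 57 deep fibre droplets, against 57 of 11027 other barcodes. Below 2000 UMIs single droplets told less, since zeros were common in both kinds of barcode: Malat1 was at 0 in 41 of 73 fibre droplets and 225 of 516 other barcodes of under 1000 UMIs, and in 39 of 65 fibre droplets and 163 of 462 others from 1000 to under 2000 UMIs. Summed Malat1 was still lower in each library, at 897, 578 and 809 CPM in fibre droplets against 2317, 3957 and 2749 CPM in the others under 1000 UMIs. From 1000 to under 2000 UMIs it was at 489, 152 and 824 CPM in fibre droplets against 3692, 5905 and 2891 CPM in the others. Over all depths the summed level was 362, 5388 and 761 CPM in all fibre droplets against 12333, 12341 and 11606 CPM in the others, with 98.3% of the replicate 2 UMIs in its 3 droplets under 5% gate share. At 5% or more it was 190, 128 and 201 CPM.

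**Figure D4:**
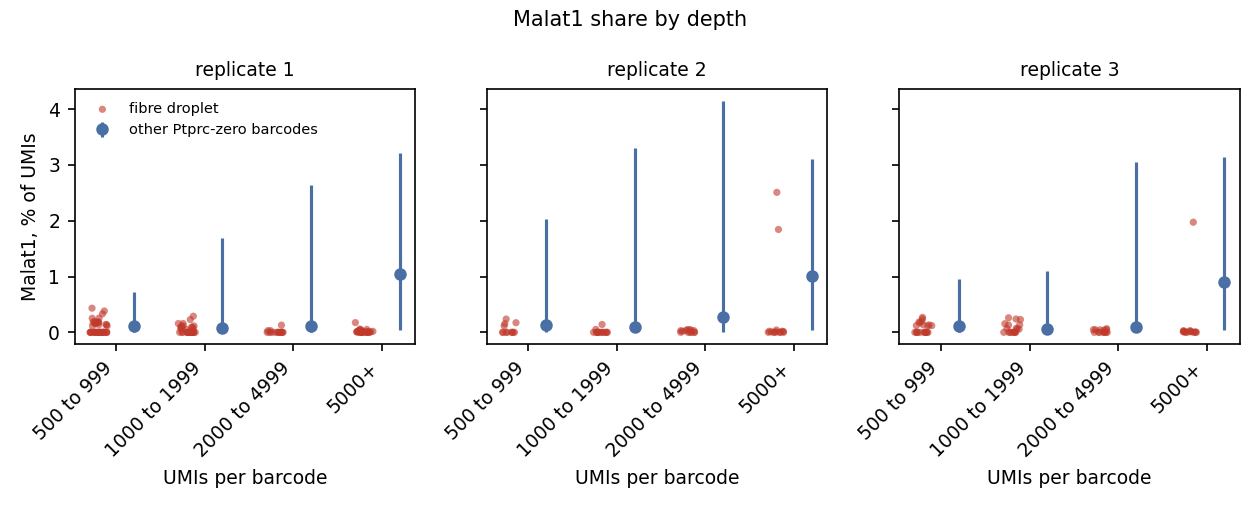
The y axis is Malat1 as a percentage of a barcode's UMIs and the x axis is the barcode's UMI class, 1 panel per library. Red points are single fibre droplets, set left of the blue circles, which give the median of other Ptprc-zero barcodes with a bar from their 5th to 95th percentile. At 5000 or more UMIs, nearly all fibre droplets lie near 0, below a median near 1% in the others.

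Genes outside the fibre lists were compared between fibre droplets and other Ptprc-zero barcodes by summed UMIs per library, with edgeR's quasi-likelihood test blocked on library. Of 15820 genes, 2222 (14.0%) were called higher and 3685 (23.3%) lower, where a call means a log2 difference of 1 or more in size with a Benjamini-Hochberg adjusted p under 0.05. The contrast is the one the rule made, so these counts are background. Without replicate 1 they dropped to 469 higher and 62 lower, so a call named below need not hold without that library. With fibre droplets of 5% gate share or more, 1968 (12.5%) were called higher and 5100 (32.3%) lower of 15799 genes. Of 7 nuclear-retained RNAs, 5 were called lower and 0 higher with either set of droplets. Malat1 had a log2 difference of −2.84 ± 0.601 (SE, edgeR adjusted p = 0.000156), and −5.80 ± 0.388 at a gate share of 5% or more (edgeR adjusted p = 1.36e-48). Meg3, another noncoding RNA, had −2.73 ± 0.537 (edgeR adjusted p = 5.58e-05), and −5.73 ± 0.379 at 5% or more. A limit of at most 5000 UMIs was also set, on the other barcodes only. Depth was therefore not matched: fibre droplets of 5000 UMIs or more gave 780196 of the 1059535 fibre droplet UMIs. Against those other barcodes, 3 of 6 nuclear-retained RNAs tested were called lower, beside 28.6% of 7972 genes. There Malat1 had −1.65 ± 0.578 (edgeR adjusted p = 0.0450), while Meg3 had −0.89 ± 0.570 and Kcnq1ot1 −1.29 ± 0.770 (edgeR adjusted p = 0.219 and 0.188), so both lost their call. With that limit on the others and a gate share of 5% or more together, 5 of 6 were called lower, beside 45.6% of 7780 genes, and Malat1 had −4.39 ± 0.348. Gm42418, whose annotation overlaps a ribosomal RNA repeat and which sits in the same list, was not lower: it was the most abundant transcript of the fibre droplets at 92930, 73952 and 78165 CPM, against 70573, 59099 and 65497 CPM in the others (log2 difference 0.92 ± 0.547, edgeR adjusted p = 0.192).

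Fibroblast, endothelial and mural RNA was lower in fibre droplets than in the other barcodes of all depths. All 6 fibroblast markers were called lower, beside 23.3% of all genes. Col1a1, the collagen I chain of fibroblasts, was at 2773, 3131 and 105 CPM in fibre droplets against 10711, 11578 and 12422 CPM in the others (log2 difference −2.66 ± 0.662, edgeR adjusted p = 0.00110). At a gate share of 5% or more it was at 185, 219 and 105 CPM (log2 difference −5.82 ± 0.388, edgeR adjusted p = 5.29e-49). Against other barcodes of at most 5000 UMIs, none of the 6 was called: Col1a1 had −0.74 ± 0.875 (edgeR adjusted p = 0.490), and the lowest adjusted p of the list, that of Pdgfra, was 0.177. With both that limit on the others and a gate share of 5% or more, all 6 were called lower. Fibre droplets were not limited in depth in either comparison. All 6 endothelial and all 6 mural markers were called lower in the comparison with all depths. Pecam1, an endothelial adhesion molecule, had 2 UMIs in all fibre droplets and averaged 77.4 ± 29.2 CPM in the others (SD, n = 3). Acta2, smooth muscle actin, had 1 UMI, and Myh11, smooth muscle myosin, had none. Adipocyte and erythroid markers had no UMI, lymphoid markers 1 UMI and Schwann cell markers 7 UMIs between them. Neutrophil markers made up 0.00499%, 0.00353% and 0.00124% of fibre droplet UMIs against 0.00363%, 0.00206% and 0.00201% in the others.

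Macrophage markers depended on the barcodes they were set against. The list made up 0.0175%, 0.00705% and 0.0164% of fibre droplet UMIs, against 0.0127%, 0.00408% and 0.0179% in the other Ptprc-zero barcodes, and 1 of 8 markers was called higher, beside 14.0% of all genes. That marker, C1qb, a complement subunit, had a log2 difference of 1.83 ± 0.624 (edgeR adjusted p = 0.0166). Against other Ptprc-zero barcodes of at most 5000 UMIs its log2 difference was −3.12 ± 0.430 (edgeR adjusted p = 0.00117), so its direction turned, and all 8 markers were called lower there, beside 28.6% of 7972 genes. The higher call of C1qb rested on 13 UMIs in 12 droplets, and it was lost when any 1 library was left out. Both sides were chosen for no Ptprc UMI, a leukocyte gene that is missed more easily in a shallow barcode. In the other Ptprc-zero barcodes, the median macrophage-marker share was 0.119% under 1000 UMIs and 0.00281% at 5000 or more. The filter and depth cannot be told apart here, so these calls are not read as a result about macrophage RNA.

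Stress genes induced by tissue dissociation were lower in fibre droplets than in the other barcodes of all depths. All 12 such genes were called lower, beside 23.3% of all genes. Fos was at 401, 843 and 52.6 CPM in fibre droplets against 2365, 2547 and 2744 CPM in the others (log2 difference −2.52 ± 0.550, edgeR adjusted p = 0.000227), and had −4.67 ± 0.344 at a gate share of 5% or more. Egr1 was at 233, 713 and 52.6 CPM against 1538, 1958 and 1823 CPM (log2 difference −2.39 ± 0.517, edgeR adjusted p = 0.000203), and had −4.73 ± 0.344 at 5% or more. Against other barcodes of at most 5000 UMIs, 9 of the 12 were called lower, beside 28.6% of 7972 genes, and Jun, Atf3 and Ier2 were not (edgeR adjusted p = 0.0517, 0.0544 and 0.0762). All droplets under 5% gate share together held 76.9%, 86.5% and 6.47% of the list's UMIs in fibre droplets.

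Myogenic regulators were present at low levels. Myod1, a master regulator of the muscle lineage, was at 37.4, 47.0 and 37.1 CPM in fibre droplets. It was at 1.03, 0.109 and 0.322 CPM in the others. Its 42 UMIs lay in 30 droplets. Myog, which drives differentiation, had 19 UMIs in 12 droplets. The droplets were chosen for muscle RNA, so these regulators are given as levels with no test. Myf6, the regulator of that family that mature fibres keep, was looked up after the values were seen and was at 135, 125 and 133 CPM in fibre droplets, against 0.0826, 0.0182 and 0 CPM in the others. Satellite cell genes were not found with them: Pax7 had 1 UMI, and Myf5, Chodl, Calcr and Megf10 had none. In the other Ptprc-zero barcodes, which include satellite cells, Pax7 averaged 1.98 ± 2.00 CPM (SD, n = 3).

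Of the 8 genes with the largest called differences on the high side, Sln, Myl1 and Acta1 belong to the fibre lists and the other 5 do not. Ppp1r3a, which ties protein phosphatase 1 to glycogen in muscle, was at 245, 380 and 201 CPM in fibre droplets against 0.0826, 0.0365 and 0.0839 CPM in the others. Sypl2, also called mitsugumin 29, a protein of the muscle triad, was at 81.1, 133 and 58.8 CPM against 0.0354, 0.00608 and 0.0280 CPM. Tceal7 was at 37.4, 27.4 and 89.7 CPM in fibre droplets and had no UMI in the others. The unnamed transcripts 2310002L09Rik and 3300002P13Rik averaged 166 ± 20.05 and 58.5 ± 18.6 CPM in fibre droplets, against 0.0371 ± 0.0191 and 0.00596 ± 0.00590 CPM in the others (SD, n = 3 each). On the low side, 8 genes had no UMI in the fibre droplets. Hgf, the hepatocyte growth factor, averaged 73.0 ± 8.76 CPM in the others, which makes it at least 25.8-fold lower in fibre droplets when 3 counts over all 3 libraries are taken as the floor. Sema6a, Ccbe1, Mmrn1, Mctp1, Selp, Slc7a1 and Pcdh9 were at least 22.5-, 20.5-, 18.6-, 18.4-, 17.9-, 18.5- and 18.0-fold lower on the same floor.

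Outside the fibre lists, the most abundant transcripts were general. Tpt1, a translationally controlled protein, was at 8259, 6536 and 13078 CPM in fibre droplets against 3586, 3927 and 3767 CPM in the others. Fth1, a ferritin chain, was at 5205, 4444 and 6468 CPM against 2942, 2697 and 2519 CPM. Selenow, a selenoprotein abundant in muscle, stood further apart, at 3274, 2586 and 4538 CPM against 363, 391 and 410 CPM. Ybx3, a cold-shock domain RNA-binding protein, was at 2515, 1912 and 3263 CPM against 242, 227 and 233 CPM. Ribosomal protein transcripts overlapped between kinds of barcode: Rplp1 was at 3249, 2986 and 4102 CPM in fibre droplets against 3174, 3244 and 3077 CPM.

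At equal depth the fibre droplets held fewer genes. Thinned to 500 UMIs, they had a median of 277, 289 and 262 genes, against 361, 366 and 359 genes in the other Ptprc-zero barcodes thinned alike, a mean ratio of 0.762 ± 0.0302 (SD, n = 3). At 1000 UMIs, where 77, 41 and 46 fibre droplets remained, the medians were 468, 474 and 448.5 against 642, 648 and 638 genes, a ratio of 0.721 ± 0.0158. The unthinned medians of 621, 782 and 611 genes in fibre droplets stood against 5063, 4885 and 4964 in the others. The 20 most abundant genes took 33.2%, 31.5% and 37.1% of the fibre droplets' UMIs.

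The share of mitochondrial transcripts in fibre droplets differed widely between libraries. The median mt- share of a fibre droplet was 4.06%, 0.154% and 7.69% in replicates 1, 2 and 3, against 3.00%, 2.38% and 3.28% in the other Ptprc-zero barcodes. Replicate 2 thus stood far below the other libraries for fibre droplets, and there no barcode was lost to the 20% limit. Its highest fibre droplet reached 7.04%, against 19.4% and 19.3% in replicates 1 and 3. The reason was not tested.

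Deeper and shallower fibre droplets were compared by splitting each library at its median (58, 26 and 33 deeper droplets against 59, 27 and 34 shallower ones). Median depth was 4672, 5181 and 4201 UMIs in the deeper droplets and 853, 1035 and 913.5 UMIs in the shallower ones. The gate share had a median of 12.5%, 14.2% and 13.5% in deeper droplets against 9.78%, 8.74% and 11.2% in shallower ones. Of 1542 genes, 1 (0.0649%) was called higher and 11 (0.713%) lower in the deeper droplets by edgeR's quasi-likelihood test blocked on library. Of those 11, 9 were mitochondrially encoded, from 12 such genes in the fit. The rule caps their share at 20%, so they are given as levels and their calls support nothing. mt-Nd2, a complex I subunit, was at 1258, 218 and 2178 CPM in deeper droplets against 7372, 590 and 9274 CPM in shallower ones. mt-Co1, a cytochrome oxidase subunit, was at 1941, 539 and 2713 CPM against 8240, 1016 and 10986 CPM. Lyz2, a lysozyme of macrophages and neutrophils, was at 51.3, 22.3 and 48.1 CPM against 463, 131 and 498 CPM (log2 difference −3.17 ± 0.388, edgeR adjusted p = 0.00787). The rule's Ptprc limit bears on such leukocyte genes and may act differently by depth, which was not tested. Xirp2, an actin-binding repeat protein of the muscle, was at 2404, 2261 and 1786 CPM against 4207, 6291 and 6442 CPM (log2 difference −1.37 ± 0.248, edgeR adjusted p = 0.0312). Mgp, matrix Gla protein, was the 1 gene called higher, but 264 of its 379 UMIs in replicate 1 and 143 of 155 in replicate 2 came from 1 droplet each. Without replicate 1, edgeR called no gene in either direction, and 64 genes had an unadjusted p under 0.05.

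With all droplets under 5% gate share left out, 6 of 1244 genes (0.482%) were called higher and 42 (3.38%) lower in the deeper droplets. The 42 included all 11 mitochondrial genes in the fit, whose share the rule caps, so their calls support nothing. All 5 fibroblast markers tested were called lower too. Col1a1 was at 104, 156 and 78.0 CPM in deeper droplets against 759, 588 and 353 CPM in shallower ones (log2 difference −2.42 ± 0.353, edgeR adjusted p = 5.45e-10), where all fibre droplets together had given 1.52 ± 0.694. Malat1 was at 116, 99.8 and 135 CPM against 719, 294 and 802 CPM (log2 difference −2.44 ± 0.344, edgeR adjusted p = 1.33e-10), against 0.70 ± 0.865 with all. The droplets left out had held 94.5%, 95.8% and 3.13% of the fibroblast-marker UMIs of all fibre droplets. They had also held 55.7%, 98.3% and 74.4% of the Malat1 UMIs. The change of sign for Col1a1 and Malat1 thus depends on leaving these droplets out. Vim, the vimentin of mesenchymal and immune cells, had −3.56 ± 0.426 (edgeR adjusted p = 1.34e-14), and B2m, of class I antigen presentation, −3.14 ± 0.451 (edgeR adjusted p = 2.88e-10). The 6 genes called higher were Rpl10, Gng5, Ubb, Sln, Lmod2 and Snrpg. Sln, sarcolipin, which inhibits the calcium pump, was at 104, 698 and 539 CPM in deeper droplets against 79.9, 220 and 32.1 CPM in shallower ones (log2 difference 1.85 ± 0.444, edgeR adjusted p = 0.00120). Its UMIs lay in 24 of the 237 droplets.

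The gate genes, which the rule used, are given between deeper and shallower droplets as levels with no test. At 5% or more, Acta1 was at 41826, 38379 and 46455 CPM in deeper droplets against 32943, 30673 and 32368 CPM in shallower ones, with no overlap between sides. Ckm was at 18434, 22635 and 17394 CPM against 17689, 17044 and 18093 CPM, which overlapped. Mylpf was at 28784, 37724 and 37274 CPM in deeper droplets against 20205, 20718 and 21846 CPM in shallower ones, again with no overlap. Among fibre genes outside the rule, Myh4 had −0.58 ± 0.180 and Ttn −0.63 ± 0.191 (edgeR adjusted p = 0.0315 and 0.0246), under the size of 1 that a call needed. Xirp2, called lower with all fibre droplets, had −0.97 ± 0.200 (edgeR adjusted p = 5.40e-05) and so lost its call at 5% or more. Markers of other cell types moved with depth beside these: the summed fibroblast share was 0.0446%, 0.0624% and 0.0319% of UMIs in deeper droplets against 0.270%, 0.272% and 0.209% in shallower ones, and its part in the results was not tested.

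**Figure D5:**
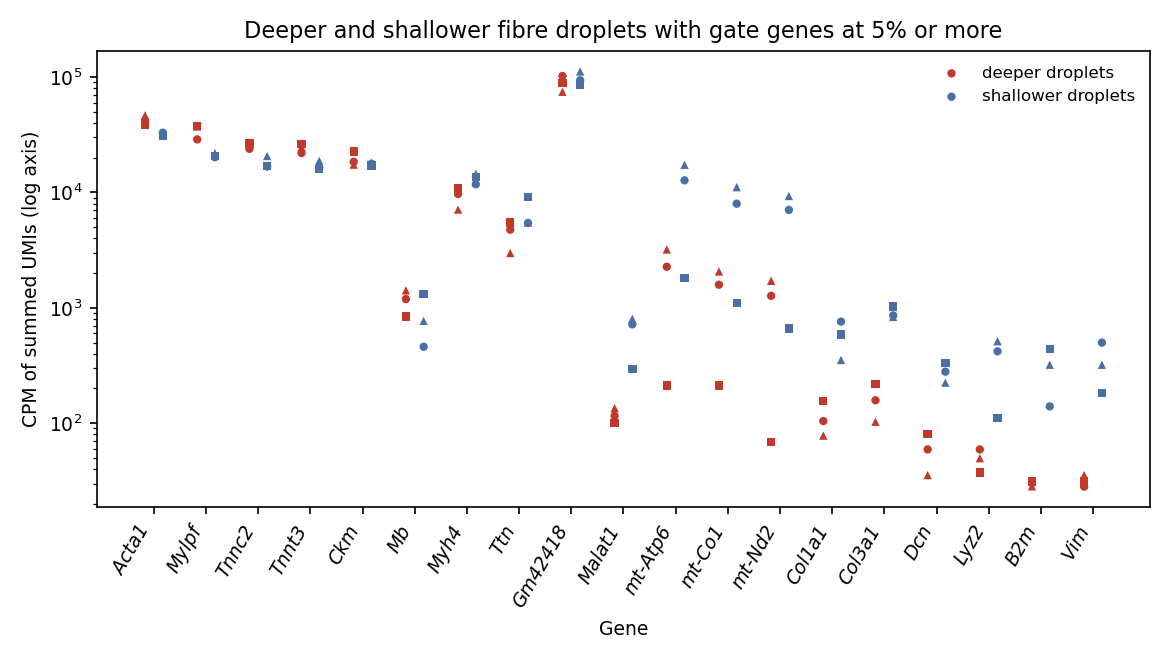
The y axis is CPM of summed UMIs on a log scale for deeper fibre droplets, left of each pair, and shallower fibre droplets, right, with gate genes at 5% or more of UMIs and circles, squares and triangles for replicates 1, 2 and 3. Acta1, Ckm and the other fibre genes at the left lie near each other, while Malat1, mitochondrial, fibroblast and Lyz2 points lie lower in the deeper droplets.

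Fibre RNA was also found outside the fibre droplets. Among barcodes that were not taken, 46.7%, 28.0% and 38.0% held a UMI of a gate gene, and the 6 genes summed to 48.7, 24.2 and 42.3 CPM, against 115206, 114835 and 146395 CPM in the fibre droplets. These shares were 51.9%, 30.2% and 44.1% in fibroblast-marker barcodes (median depth 29057, 23965 and 26681 UMIs) and 39.6%, 18.3% and 28.7% in neutrophil-marker barcodes (6383, 4688.5 and 5885 UMIs). Neither kind of cell is known to make fast troponins, and where these UMIs came from was not tested. The 45, 16 and 18 barcodes with satellite cell or myoblast markers had gate genes at 59.7, 37.9 and 77.2 CPM, from 47, 7 and 22 UMIs. Over fibroblast-, macrophage-, neutrophil- and endothelial-marker barcodes, the gate genes lay between 40.99 and 77.1 CPM in replicate 1, 15.1 and 30.7 CPM in replicate 2 and 35.6 and 61.5 CPM in replicate 3. Per 100 Acta1 UMIs, Ckm gave 45.1, 58.4 and 39.2 UMIs in fibre droplets against 59.6, 56.5 and 63.8 in barcodes that were not taken. Mb gave 2.90, 2.70 and 3.07 in fibre droplets against 14.4, 38.4 and 14.6 in the rest. In fibroblast-marker barcodes Mb gave 20.9, 42.0 and 23.5 per 100 Acta1 UMIs, and in macrophage-marker barcodes 4.19, 5.13 and 2.97, so its ratio to Acta1 differed between these kinds of barcode.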

How the data were processed

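The authors deposited, per sample, a matrix of UMI counts per gene and barcode with barcode and gene lists. No normalization had been applied. Version 7.0.0 of the software stands in the deposited files, per the file headers, whereas Cell Ranger 6.1.2 is named per the submitters' processing notes. The genome build, like the aligner settings and the handling of intronic reads, is not given in the sources used here. The droplets and gene lists were chosen with earlier results of these data known. The 3 libraries held 6068, 8643 and 4996 barcodes and 136519688, 192348779 and 104482261 UMIs, all at 500 UMIs or more.

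Counts were summed over fibre droplets and over other Ptprc-zero barcodes in each library, and likewise over deeper and shallower fibre droplets. Sums were tested with edgeR 4.0.16 (TMM scaling, filter on low counts, quasi-likelihood test, Benjamini-Hochberg adjustment), with the library as a block because both sums of a pair come from the same library. A gene was called with a log2 difference of 1 or more in size at an adjusted p under 0.05. DESeq2 1.42.0 was an alternative. The log2 differences are relative to TMM scaling, under which the median gene lay at −1.02 between fibre droplets and the others. Gate genes were given as levels with no test, since the rule selected them. The mt- genes, whose share the rule caps, were given as levels too, although they stay in the counts of called genes. Fibre-list genes and myogenic regulators were treated likewise between fibre droplets and others. Between deeper and shallower droplets fibre-list genes were tested. Myh4-led and Myh1- or Myh2-led droplets were to be tested only with at least 10 droplets on each side of each library, which was not met. On simulated counts, the test of fibre droplets against others over 15820 genes recovered 83 of 108 genes changed by 1.5 on the log2 scale and 92 of 92 changed by 3, with 7 false calls. For deeper against shallower droplets over 1542 genes it recovered 85 of 99 and 101 of 101, with 7 false calls. Only well-covered genes were changed in the simulation, with a single dispersion for all genes and the same base profile on both sides. The real sums differ in these respects, so the recovery and false-call figures do not carry over to them.

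Doublets were scored with Scrublet in scanpy 1.11.5, and the top 0.8% per 1000 barcodes were left out in an alternative. Other barcodes were classed by at least 3 UMIs of a marker list. Thinning drew 500 or 1000 UMIs per barcode. Named genes were the 6 gate genes, 2 to 4 examples per list by mean level with those at 0, the 10 most abundant genes outside the lists, and for each test the 8 called genes of largest difference in each direction with a mean of at least 50 CPM on 1 side. Genes at 0 were bounded by 3 counts over the group, which covers counting error only. Promoter windows are RefSeq's.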

Additional observations from a re-analysis of the deposited data

How the results depend on the processing

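Values are given as genes higher and genes lower. Fibre droplets against other Ptprc-zero barcodes gave 2222 higher and 3685 lower. Without the replicate block the counts were 2375 and 3864. Leaving out 1 replicate each gave 469 to 2132 higher and 62 to 3039 lower, both lowest without replicate 1. Against other barcodes of at most 5000 UMIs, with 7972 genes tested, 2281 were lower. Thinning each fibre droplet to 500 UMIs, chosen after seeing the data, left 611 higher. The remaining counts stayed within 1.5 times.

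Deeper against shallower fibre droplets gave 1 higher and 11 lower. The counts were 0 and 1 with TMM scaling without gate and mt- genes, which removes the mt- genes from the test, 0 higher with DESeq2 (12 lower), 36 and 5 with no filter on low counts, and 5 higher when split at 1000 UMIs (14 lower). They were 6 and 42 at a gate share of 5% or more, 6 and 26 at 10% or more, and 7 and 44 without the top doublet scores. Without the replicate block edgeR called 0 and 0, with 177 genes at an unadjusted p under 0.05. Leaving out 1 replicate each gave 0 to 12 higher and 0 to 10 lower. This comparison therefore depends on the droplets of low gate share and on replicate 1.

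The Myh4-led share of droplets led by a myosin was 90.5%, and 95.7% at a gate share of 10% or more. The gene ratio at equal depth was 0.762 at 500 UMIs and 0.721 at 1000. Fibre droplets numbered 163 to 257 over the gate, mt-, Ptprc, depth and doublet alternatives, the lowest at a gate share of 10% or more.

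Named genes of both tests were followed over the alternative settings. Of these results, 258 kept their direction and call status, 48 lost their call, 4 gained one and 7 turned direction. Against the others, Gm42418 turned to −0.05 with thinned fibre droplets. Lyz2 turned to −3.98 against barcodes of at most 5000 UMIs, −4.15 against all other barcodes and −3.99 against barcodes of at most 5000 UMIs at a gate share of 5% or more. C1qb turned to −3.12, −2.85 and −3.38 under the same 3 settings. The causes were not tested. Gate shares of 5% or more combined with that depth limit on the others were chosen after seeing the data. Depth limits genes seen in few droplets: 0 UMIs over all fibre droplets allows up to 2.83 CPM.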
